A study of Mus musculus with 2 samples.

Results

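The 10 genes Siglech, Bst2, Tcf4, Ccr9, Irf8, Cd209a, Flt3, Clec9a, Zbtb46, and Irf4 mark the dendritic cell lineages, and they were taken as a named list from the 20299 genes of the count matrix, in which all 10 were present. Their UMIs (unique molecular identifiers, each standing for 1 captured transcript) were summed by cluster and library to find where plasmacytoid and conventional dendritic cells lay in kidneys with nephrotoxic nephritis (NTN). The study compared 1 library of WT mice with 1 library of Vsir-/- mice, which lack the gene of the checkpoint molecule VISTA. Mice of both genotypes were C57BL/6 animals aged 8 weeks. Each animal was first immunized with sheep IgG (200 μg, with complete Freund adjuvant) and was given sheep nephrotoxic serum 4 days later, so no library without nephritis was compared. Kidneys were digested with liberase at 0.2 mg/ml and 37°C for 30 min, and droplet libraries of transcript 3′ ends were made with 10x chemistry. The labels call the WT library sorted CD45+ cells and the Vsir-/- library all kidney cells, whereas the study's methods describe a CD45+ sort without setting the genotypes apart. If the labels hold, genotype and cell selection cannot be told apart. The number of mice behind each library was not given.

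The WT library held 5470 cells and 32799550 UMIs, and the Vsir-/- library held 1844 cells and 18601189 UMIs. Vsir had 4278 UMIs in WT cells and 8 UMIs in Vsir-/- cells, as the labels state. UMIs of Ptprc, the gene of CD45, were seen in 94.2% of the WT library's cells and in 73.6% for Vsir-/-. The authors named 16 clusters, of which pDC (plasmacytoid dendritic cells), R1 (kidney-resident macrophages), M2-like R2 and Other R2 (infiltrating macrophages), and B were described here. The pDC cluster held 21 WT and 86 Vsir-/- cells, with 0.807% and 6.36% of all UMIs of their libraries. Its shares of a gene's UMIs, given below, are to be read beside these values, which differ between the libraries. The libraries shared 5 cell barcodes, of which 0 lay in the pDC cluster. Cells of 1 library do not replicate a genotype, so all intervals are exact 95% intervals that cover counting error only and no test between genotypes was possible.

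Plasmacytoid dendritic cells produce type I interferon in response to nucleic acids. They depend on the E protein Tcf4 (E2-2), carry Siglec-H and Bst2 on their surface, and home to mucosal tissue through Ccr9. Conventional dendritic cells present antigen to T cells and are divided into type 1 cells, which need Irf8 and Batf3 and carry Clec9a and Xcr1, and type 2 cells, which rely more on Irf4 and in mice often carry Cd209a. Flt3, the receptor for the main dendritic cell growth factor, and the repressor Zbtb46 mark conventional cells more broadly.

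Promoter sequences are shown for Siglech and Ccr9, because these genes had more than 90% of their pDC-cluster UMIs in 1 small group of cells that also held most Tcf4 UMIs there. Each is the stretch of 250 bases before the transcription start in RefSeq (build GRCm38.p6), read 5′ to 3′ on the gene's strand, and the capitals mark CAGGTG or its reverse complement, an E-box of the type that E proteins can bind.
Siglech, chr7:55767934-55768183, plus strand: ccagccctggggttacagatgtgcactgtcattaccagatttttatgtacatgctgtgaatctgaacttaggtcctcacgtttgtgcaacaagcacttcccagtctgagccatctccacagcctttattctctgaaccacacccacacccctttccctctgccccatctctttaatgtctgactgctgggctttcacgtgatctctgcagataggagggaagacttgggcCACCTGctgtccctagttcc
Ccr9, chr9:123766961-123767210, plus strand: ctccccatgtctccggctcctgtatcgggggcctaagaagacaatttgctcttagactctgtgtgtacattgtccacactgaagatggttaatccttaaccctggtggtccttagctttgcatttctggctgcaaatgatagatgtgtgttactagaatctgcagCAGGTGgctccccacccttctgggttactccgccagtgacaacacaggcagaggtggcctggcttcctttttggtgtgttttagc
The match lay 20 to 15 bases before the start in Siglech and 85 to 80 bases before it in Ccr9. RefSeq gave such windows for 9 of the 10 genes, 10 windows in all since Irf8 has a pair of starts, and none for Tcf4. The motif, searched on both strands, was in 5 of the 10 windows (Siglech, Ccr9, Bst2, Zbtb46, and 1 of Irf8) and in 17.2% of all 32851 windows. A match describes letters only, and binding was not measured.

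Siglech, the gene of the lectin Siglec-H, was seen mostly in the pDC cluster in the Vsir-/- library, while its WT share rested on few cells. The cluster held 243 of 263 Siglech UMIs in Vsir-/- cells, 92.4% (88.5 to 95.3), and 53 of 76 in WT cells, 69.7% (58.1 to 79.8). The WT share was 53.1% without the cell of the cluster with the most Siglech UMIs. With every cell thinned to 1000 UMIs it was 100%, above the Vsir-/- share of 90.7% after thinning. It was 11.5% with pDC-cluster cells holding T cell or neutrophil transcripts left out. Here and below, this means more than 1 UMI of 6 T cell genes, or of the neutrophil genes S100a8, S100a9, and Retnlg. That limit took out every WT cell of the cluster with at least 5 Siglech UMIs and was not applied to other clusters. Those WT cells held 8 UMIs of 6 listed neutrophil genes and 1 UMI of the T cell genes in all. Scaled to the total UMIs of the same cells (counts per M UMIs, CPM), the Siglech level in the pDC cluster was 205 in Vsir-/- and 200.2 in WT. Next in order came R1 in the WT library, at 33.1 CPM, and Other R2 in the Vsir-/- library, at 11.6 CPM, and neither interval reached that of the pDC cluster. Of the 23 Siglech UMIs in WT R1 cells, 21 came from 1 cell with 13682 UMIs that also held 52 UMIs of the macrophage gene C1qa. Among Vsir-/- cells, 1 Other R2 cell held 8 Siglech UMIs, and 1 neutrophil held 6 beside 160 of the neutrophil gene S100a8. In the WT library, M2-like R2, Other R2, and B cells held 0 Siglech UMIs.

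The other genes of plasmacytoid cells were spread more widely. Ccr9, a chemokine receptor, stood at 121 CPM (82.7 to 171) in the WT pDC cluster and 120 CPM (101 to 141) in the Vsir-/- one. Among Vsir-/- clusters of at least 20 cells, the pDC cluster ranked first, and it held 77.6% of Ccr9 UMIs. In the WT library the pDC cluster held 5.98%, ILC2 cells stood higher at 280 CPM (231 to 337), and non-EM-like CD8+ T cells held 51.0%. The 19 Vsir-/- ILC2 cells were too few to be ranked, so the orders of the 2 libraries cannot be compared for ILC2. Tcf4 stood at 419 CPM in the WT pDC cluster and 309 CPM in the Vsir-/- pDC cluster, first in both orders, although the Vsir-/- interval overlapped that of Proliferating cells at 269.99 CPM. The pDC cluster held 5.06% of WT and 12.1% of Vsir-/- Tcf4 UMIs, beside 0.807% and 6.36% of all UMIs. WT B cells, at 266 CPM, held 42.2% of WT Tcf4 UMIs. Bst2, which encodes the virus-restricting protein tetherin, ranked first in the WT pDC cluster at 1262 CPM. Its Vsir-/- level was 866 CPM in R1 and 786 CPM in the pDC cluster, with overlapping intervals. Irf8, a transcription factor of several blood lineages, ranked highest in NK cells in both libraries, at 1342 CPM in WT and 1225 CPM in Vsir-/-. The pDC cluster followed at 1193 CPM in Vsir-/-, overlapping NK cells, and stood at 684 CPM in WT, where NKT cells at 700.2 CPM overlapped it.

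Bst2, Tcf4, and Zbtb46 of the Vsir-/- library were also high in clusters that carried kidney tissue transcripts. The Proliferating cell cluster held 32.8% of Bst2, 39.8% of Tcf4, and 41.3% of Zbtb46 UMIs there, beside 23.9% of all UMIs. Over the same cells, the 8 endothelial genes summed to 4807 CPM and the 12 tubule genes to 6785 CPM, against 32.8 and 23.4 CPM in the WT Proliferating cell cluster. All 8 and all 12 genes had UMIs in the Vsir-/- cluster, against 3 and 2 in the WT cluster. The part of endothelial and tubule transcripts in these members' levels was not tested.

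Cd209a, the gene of a DC-SIGN lectin, was held mostly by the pDC cluster in the Vsir-/- library, with 444 of 511 UMIs (86.9%, 83.7 to 89.7). The WT pDC cluster held 109 of 215 UMIs (50.7%, 43.8 to 57.6), and 18.5% with those of its cells holding T cell or neutrophil transcripts left out. Its level there was 375 CPM in Vsir-/- and 412 CPM in WT. M2-like R2 macrophages held 26.3 and 13.0 CPM, through 8 Vsir-/- and 9 WT cells. R1 held 10.6 and 20.1 CPM through 2 cells of each library, and Other R2 macrophages and neutrophils held 0 in both. The most Cd209a UMIs in 1 cell outside the pDC cluster were 28, in a WT cell of the NK cluster with 44172 UMIs that also held 22 UMIs of the NK gene Ncr1. Cd209a has close paralogs, and how reads shared between them were counted was not given. Flt3 also ranked first in the pDC cluster, at 93.0 CPM in the Vsir-/- pDC cluster (76.9% of its UMIs) and 64.2 CPM in the WT one (28.3%). In the WT library more Flt3 UMIs, 26 of 60, lay in M2-like R2 macrophages, where the level was 5.92 CPM.

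Clec9a, a receptor for dead cells on type 1 cells, was divided between the pDC cluster and R1. The Vsir-/- pDC cluster held 129 of 205 Clec9a UMIs (62.9%, 55.9 to 69.6) at 109 CPM, and R1 held 56 UMIs at 34.97 CPM. In the WT library R1 held 36 of 48 UMIs (75%, 60.4 to 86.4) at 51.8 CPM, and the pDC cluster held 7 UMIs at 26.4 CPM, with overlapping intervals. A Clec9a UMI was seen in 21.6% of WT R1 cells and 17.7% of Vsir-/- R1 cells, with at most 3 UMIs in any of them. In neutrophils, used as cells that should lack the gene, the shares were 0.191% and 1.27%. R1 cells had median depths of 4868.5 and 5921 UMIs, and neutrophils 3565 and 4097 UMIs. With every cell thinned to 1000 UMIs the R1 shares were 4.59% and 2.83%, against 0.199% and 0 of 153 cells (a limit of 1.96%) in neutrophils. Of the R1 cells with Clec9a, only 1 of 25 WT and 8 of 42 Vsir-/- cells also had a UMI of Xcr1 or Flt3. In the Vsir-/- pDC cluster this number was 31 of 35, in cells with a higher median depth of 13776 UMIs. The part of depth in this difference was not tested.

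Zbtb46 and Irf4 had few UMIs. Zbtb46 was seen 2 times in the WT pDC cluster and 28 times in the Vsir-/- one, where its 23.7 CPM overlapped the 24.8 CPM of B and the 24.1 CPM of Proliferating cells. Irf4, which also drives plasma cell formation, stood at 59.7 CPM in WT B cells and 30.2 CPM in the WT pDC cluster. For Vsir-/-, gdT cells stood first at 67.7 CPM, B cells at 28.6, and the pDC cluster at 23.7 CPM. Neighbours in these orders had overlapping intervals.

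**Figure D1:**
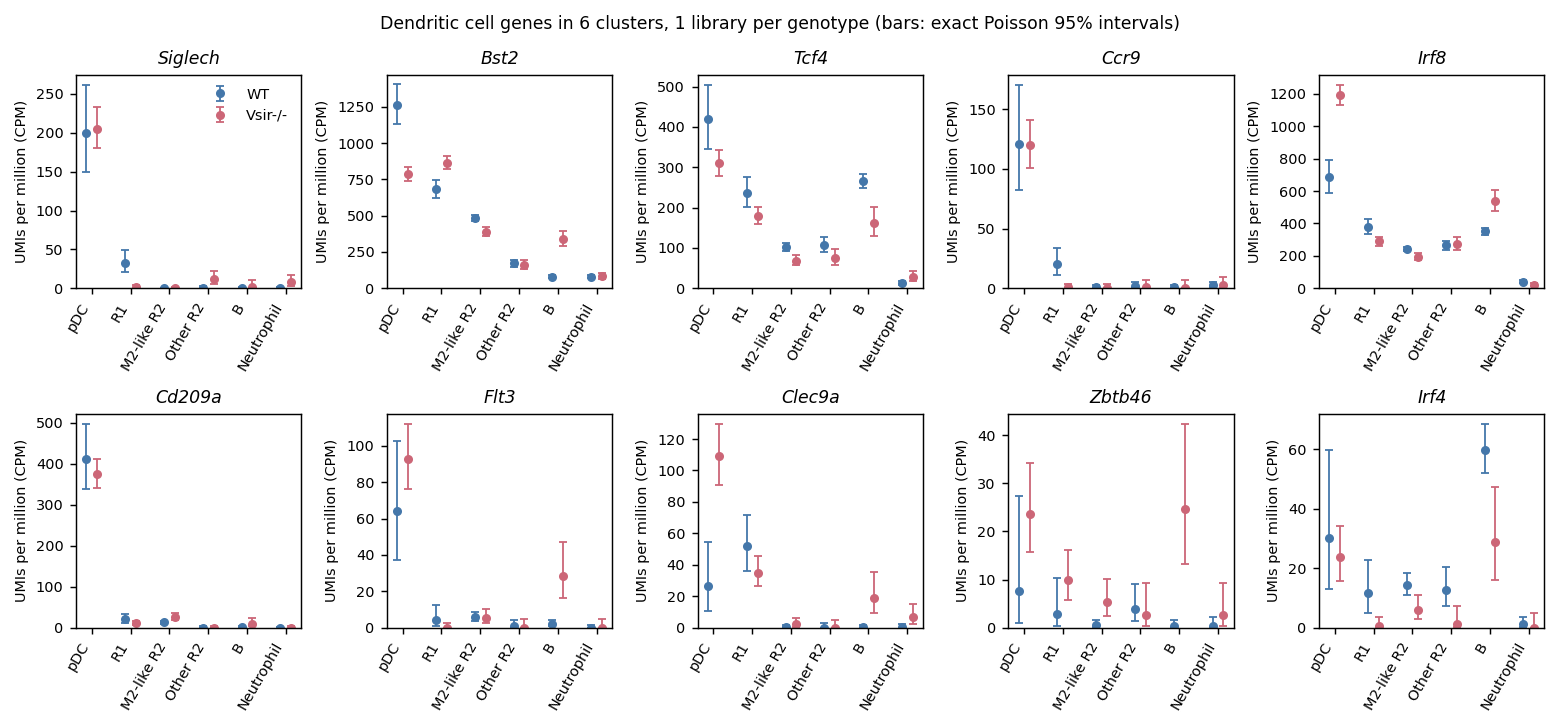
Level of each of the 10 genes (CPM, linear axis from 0) in 6 clusters of the WT (blue) and Vsir-/- (red) library, with exact Poisson 95% intervals. Siglech and Cd209a stood far higher in the pDC cluster than in the other 5, whereas Clec9a was also present in R1 and Tcf4, Bst2, and Irf8 were present in most clusters.

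Relative to the 3 macrophage clusters pooled, the members were higher in the pDC cluster. In the WT library 9 of 10 members passed the minimum of 20 UMIs and all 9 were higher by over 2-fold, against 12.2% of all genes tested. The exact interval of Irf4 reached a log2 ratio of -0.11. For Vsir-/-, 9 of 10 were higher by over 2-fold, against 6.48% of all genes, and Bst2 differed less, with a log2 ratio of 0.56 (0.44 to 0.67). The median log2 ratio of the members was 2.23 in WT and 2.92 in Vsir-/-, against 0.11 and -0.08 for all genes. Siglech had log2 ratios of 5.79 in WT and 6.24 in Vsir-/-, and Cd209a 5.21 and 4.64. The cluster was chosen by the authors from the same transcripts, so these values describe the naming and do not test it. Over B cells, 5 of 8 members were higher by over 2-fold in WT (17% of all genes) and 7 of 10 in Vsir-/- (12.3% of all genes). Tcf4 was within 2-fold of B cells in both libraries, Irf8 in WT, Irf4 in both, and Zbtb46 in Vsir-/- (log2 ratio -0.07).

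The B cluster of the Vsir-/- library differed in its makeup from that of the WT library. All 969 WT cells had a UMI of Cd79a, Cd79b, or Ms4a1, which encode B cell surface proteins, whereas 43 of 88 Vsir-/- cells had none. Those 43 cells, of median depth 1122 UMIs, held 7 of the 10 Clec9a UMIs, 10 of the 15 Flt3 UMIs, and 11 of the 13 Zbtb46 UMIs of the cluster. Of their 7 Clec9a UMIs, 4 came from 1 deep cell with 37643 UMIs, which also held 1 Flt3, 2 Zbtb46, and 46 Irf8 UMIs. Among the other 45 cells, 1 with 27744 UMIs held 3 Clec9a, 10 Xcr1, 9 Batf3, and 65 Irf8 UMIs and 0 of Cd79a.

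Within the pDC cluster, the 10 genes were spread unevenly over the cells, and some cells held genes of several lineages. Groups of cells were set after the values were seen. Siglech-high cells have at least 5 Siglech UMIs, and the others were divided by whether they held Clec9a and Cd209a. The 107 cells comprised 17 Siglech-high cells, 27 Clec9a cells, 37 Cd209a cells, 5 cells with both Clec9a and Cd209a, and 21 remaining cells. Siglech counts did not overlap around the limit, since Siglech-high cells held 5 to 30 UMIs and every other cell held at most 2. The limit fixed that separation for Siglech itself but not for the other genes.

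The Siglech-high cells, 3 WT and 14 Vsir-/-, carried the plasmacytoid genes together. They were 15.9% of the cells and held 8.99% of the UMIs of the cluster, but 95.3% of its Siglech, 90.8% of its Ccr9 (85.5 to 94.7), 64.4% of its Tcf4 (59.9 to 68.7), and 49.0% of its Bst2 UMIs (46.2 to 51.8). In the 3 WT cells, Siglech had 8, 13, and 27 UMIs, Tcf4 31, 23, and 18, and Ccr9 3, 6, and 21 in the same order. In the 14 Vsir-/- cells the lowest, median, and highest counts were 5, 18.5, and 30 for Siglech, 4, 17, and 34 for Tcf4, and 2, 5.5, and 31 for Ccr9. All 17 cells held Bst2 (13 to 56 UMIs) and Irf8 (14 to 58 UMIs), and the WT cells lay within or above the Vsir-/- range. As levels, Siglech stood at 1775 CPM (1309 to 2354) in the WT and 2269 CPM (1987 to 2579) in the Vsir-/- Siglech-high cells, so the intervals overlapped. Of 20 listed plasmacytoid genes, 19 had UMIs in these cells, but so did 19 in Cd209a cells. The list summed to 24890 CPM in Siglech-high cells, against 3092 in Clec9a, 1101 in Cd209a, and 1770 CPM in remaining cells. Siglech itself, by which the group was set, is on the list and gave 282 of its 3240 UMIs. Ly6d, a surface antigen, was seen in all 17 Siglech-high cells and the transcription factor Spib in 14. These cells held 0 UMIs of Zbtb46, Xcr1, Batf3, and Cd79a, and 3 UMIs of Cd209a, all in 1 cell. Clec9a was present at low level, with 9 UMIs over 7 cells. Ighm was seen in all 17 and Cd79b in 8 of them, whereas Ms4a1 was at 0 like Cd79a.

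The Clec9a cells, 2 WT and 25 Vsir-/-, carried the genes of type 1 conventional cells. They held 954 of the cluster's 1592 Irf8 UMIs (59.9%, 57.5 to 62.3), 71 of 127 Flt3 UMIs (55.9%), and 17 of 30 Zbtb46 UMIs (56.7%, 37.4 to 74.5), with 33.8% of all its UMIs. These shares came from the Vsir-/- library, where they were 66.4%, 60.9%, and 53.6%. The 2 WT cells held 17 of 181 Irf8 UMIs (9.39%), fewer than the 124 of Siglech-high cells, and 4 of 17 Flt3 UMIs, fewer than the 9 of Cd209a cells. Xcr1, the chemokine receptor of type 1 cells, had 223 of its 228 UMIs there, and Batf3, a transcription factor they need, 114 of 187, of which 3 of 12 in WT. All 12 listed type 1 genes had UMIs in these cells, where their sum stood at 4417 CPM, against 365 CPM in Cd209a cells and 169 CPM in Siglech-high cells. Clec9a itself, by which the groups were set, is on the list and gave 119 of its 2163 UMIs in Clec9a cells. In the 25 Vsir-/- cells, Irf8 ranged from 0 to 86 UMIs with a median of 41, and Xcr1 from 0 to 31 with a median of 7. Irf4 had 0 UMIs in these 25 cells. The WT group rested on 2 cells that differed from each other. In 1 of them 3 Clec9a UMIs stood beside 4 Irf4, 3 Flt3, 2 Zbtb46, and 1 Irf8 UMIs. That cell also held plasmacytoid genes, with 40 Bst2, 8 Tcf4, 2 Siglech, and 1 Ccr9 UMIs. The other cell held 1 Clec9a, 16 Irf8, and 0 Irf4 UMIs.

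The Cd209a cells, 8 WT and 29 Vsir-/-, were the largest group and held most of the Irf4 UMIs. They held 27 of 36 Irf4 UMIs (75%, 57.8 to 87.9), of which 4 of 8 in WT, but 26 of 1592 Irf8 UMIs (1.63%, 1.07 to 2.38). Of all UMIs of the cluster they held 34.1%, and 49.1% in WT, where their Irf4 share was near that of all UMIs. The WT cells of this group also held 9 of 12 WT Batf3 UMIs. The lowest, median, and highest Cd209a counts were 2, 8.5, and 39 in WT cells and 1, 9, and 69 in Vsir-/- cells, which overlap. As levels these were 716 CPM (578 to 877) and 1140 CPM (1033 to 1255), and the intervals did not overlap. In 3 of the 8 WT cells T cell genes were also seen, with 139 UMIs, against 2 UMIs in the 29 Vsir-/- cells, and their part in this difference was not tested. Irf4 had a UMI in 18 of the 37 cells, and Irf8 in 9. Xcr1 had 0 UMIs. Clec10a, a C-type lectin of type 2 cells and macrophages, had 152 of the cluster's 213 UMIs there. The listed type 2 genes, 13 of 14 with UMIs, summed to 4404.5 CPM, against 878 CPM in Clec9a cells, 2251 CPM in Siglech-high cells, and 2881 CPM in the remaining cells. In WT alone, the remaining cells stood at 3467 CPM and Cd209a cells at 3479 CPM. Cd209a itself, by which the groups were set, is on the list and gave 507 of its 2172 UMIs in Cd209a cells. Macrophages held the list at a like or higher level, with 5103 and 5981 CPM in Other R2 and 3709 and 3621 CPM in M2-like R2 of the WT and Vsir-/- libraries, so it did not set these cells apart from macrophages. Genes of MHC class II, which load peptide for CD4+ T cells, summed to 47691 CPM in Cd209a cells, 38153 CPM in Clec9a cells, and 7321 CPM in Siglech-high cells. In WT alone, Cd209a and Clec9a cells stood at 24333 and 24592 CPM, against 56045 and 38815 CPM in Vsir-/-. The remaining cells stood at 46177 CPM over both libraries and at 34195 CPM in WT. R1 macrophages stood above every group, at 70930 CPM in WT and 61499 CPM in Vsir-/-. The median depths of Cd209a, Clec9a, and Siglech-high cells were 13254, 16460, and 7526 UMIs per cell, and their part in these levels was not tested.

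**Figure D2:**
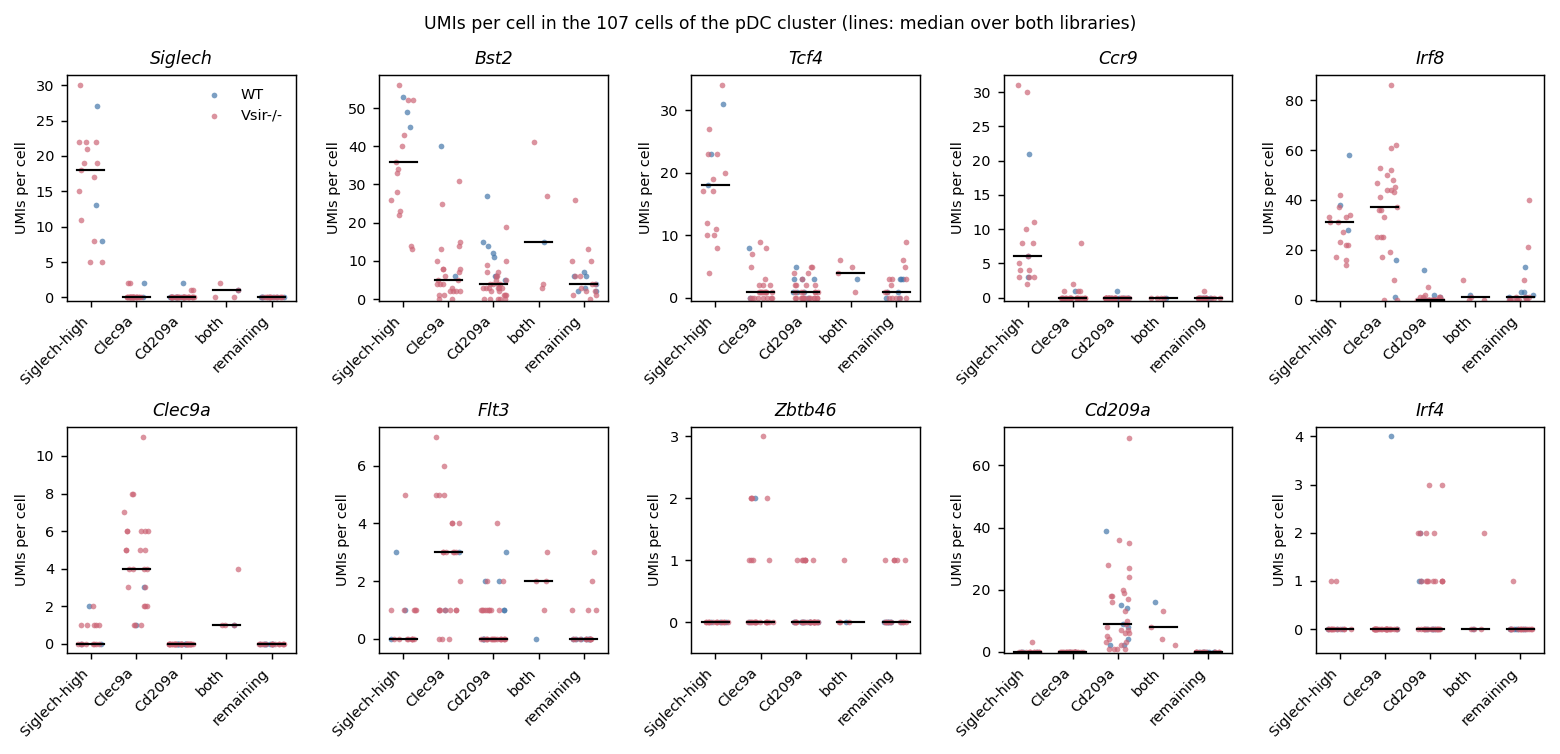
UMIs per cell (linear axis) of the 10 genes in the 107 cells of the pDC cluster, by group of cells, with each dot 1 cell (WT blue, Vsir-/- red) and lines for medians over both libraries. Siglech, Tcf4, Bst2, and Ccr9 were highest in Siglech-high cells, Irf8 was high in these and in Clec9a cells and near 0 in Cd209a cells, and Irf4 UMIs lay mostly in Cd209a cells.

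The authors' UMAP (a 2-dimensional map in which cells with like transcripts lie close) set the Siglech-high cells apart, whereas the other groups overlapped in part. Exactly the 17 Siglech-high cells lay below -15 on its first axis, and no other cell of the series did. Another place, below -6 on the second axis, held 28 of 86 Vsir-/- cells, 32.6% (22.8 to 43.5), and 2 of 21 WT cells, 9.52% (1.17 to 30.4). The 28 Vsir-/- cells included 19 of the 25 Clec9a cells and 5 Cd209a cells and held 747 Irf8 and 93 Clec9a UMIs, whereas the WT pair held 15 Irf8 and 0 Clec9a UMIs. The place between these held 16 WT and 39 Vsir-/- cells, with all 8 WT and 21 of 29 Vsir-/- Cd209a cells, both WT and 5 Vsir-/- Clec9a cells, and all 5 cells with both genes. The last place, above -2 on the first axis, held 5 Vsir-/- cells with a median depth of 26807 UMIs. The places were chosen after the map was seen, and the map was computed from the same transcripts.

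**Figure D3:**
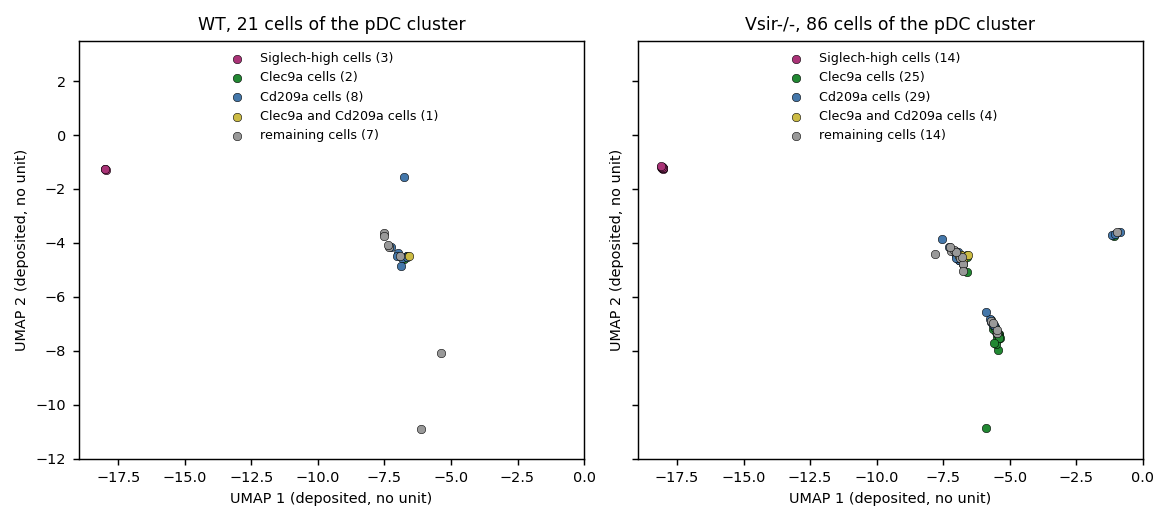
Deposited UMAP positions (axes without unit) of the 21 WT and 86 Vsir-/- cells of the pDC cluster, coloured by group of cells. The 17 Siglech-high cells formed 1 isolated point cloud, and the Clec9a cells lay mostly in a lower cloud with 28 Vsir-/- and 2 WT cells.

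The remaining 21 cells held 0 UMIs of Clec9a, Cd209a, and Siglech. In the WT library, 5 of the 7 had Cd79a, with 64 UMIs in all. The 14 Vsir-/- cells held 0 Cd79a UMIs, 46 Batf3 UMIs, and 72 Irf8 UMIs. Genes of mature dendritic cells summed to 1149 CPM in the 21 cells, against 63.3 to 123 CPM in the 3 main groups, with UMIs of 9 of the 10 listed genes. The sum was 485 CPM in the WT and 1384 CPM in the Vsir-/- cells. The B cluster held the same list at 675 CPM in WT and 938 CPM in Vsir-/-, so the list was not particular to these cells. Of the 107 cells labelled pDC, 17 carried Siglech, Ccr9, and Tcf4 together at these levels, and the larger part held Clec9a, Cd209a, or both instead.

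Gates of 1 UMI were also applied to every cluster. In the pDC cluster, cells with Siglech and with Ccr9 or Tcf4 numbered 6 WT and 19 Vsir-/-, those with Cd209a but not Siglech 7 and 29, and those with Clec9a and with Xcr1, Irf8, Flt3, Zbtb46, or Batf3 4 and 34. The first and last gate shared 3 WT and 9 Vsir-/- cells, and of the Siglech-high cells 1 WT and 6 Vsir-/- cells had a Clec9a UMI. In the whole libraries the first gate found 9 WT and 23 Vsir-/- cells, and the last found 30 and 82, of which 23 and 39 lay in R1. With Xcr1 or Flt3 required, 3 of 4 WT and 31 of 45 Vsir-/- cells lay in the pDC cluster.

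Between genotypes, the number of members past 2-fold in the pDC cluster depended on which cells and counts were kept. Past 2-fold with at least 20 UMIs were 2 of 10 members, both higher in the Vsir-/- library, against 11.9% of all 6767 genes higher and 10.1% lower, and 0 members were lower. Both passed the minimum only through their Vsir-/- UMIs, so their shared direction is no evidence of a difference. The number was 1 with at least 100 UMIs and 5 with mitochondrial shares limited to 5%. The mitochondrial limit left 20 of the 21 WT cells, without the one with the most Siglech UMIs. The number was 4 with cells holding T cell or neutrophil transcripts, or B cell transcripts, left out. The share over all genes was not computed for these alternatives, so their counts have no background to be read against. Clec9a had 7 UMIs in WT and 129 in Vsir-/- cells, a log2 ratio of 2.04 (0.96 to 3.39). Zbtb46, with 2 and 28 UMIs, had a log2 ratio of 1.65 (-0.34 to 4.76), whose interval included 0. Irf8 stood at 684 and 1193 CPM (log2 ratio 0.80, 0.58 to 1.03), Bst2 at 1262 and 786 CPM (-0.68, -0.86 to -0.50), and Tcf4 at 419 and 309 CPM (-0.44, -0.75 to -0.12). Siglech (0.04, -0.40 to 0.49), Ccr9 (-0.01, -0.57 to 0.59), Cd209a (-0.13, -0.44 to 0.18), Flt3 (0.53, -0.21 to 1.36), and Irf4 (-0.35, -1.52 to 0.99) had intervals that included 0. The median over the 10 members was -0.00075, and over all genes -0.07.

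These ratios depended on single cells and on the mix of cells. In the WT cluster, 1 cell held 27 of 53 Siglech UMIs and 21 of 32 Ccr9 UMIs. Without the cell with the most UMIs in each library, the log2 ratio was 0.83 for Siglech, 1.13 for Ccr9, 1.26 for Irf8, and 2.68 for Clec9a. That cell held a larger share of the WT than of the Vsir-/- UMIs for every member, such as 50.9% and 12.3% for Siglech. An upward shift is therefore built into this removal. With the 14 WT and 17 Vsir-/- cells past the limit on T cell or neutrophil transcripts left out, the log2 ratio of Siglech was 2.59. Every WT Siglech-high cell was among those left out, so this value compares libraries after the main WT source of Siglech was removed. All 12 type 1 genes listed were higher by over 2-fold in the Vsir-/- cluster, with a median log2 ratio of 2.27. The most abundant were Naaa, a lysosomal amidase, at 128 and 629 CPM in WT and Vsir-/-, Ppt1, a lysosomal thioesterase, at 144 and 422 CPM, and Wdfy4, needed for cross-presentation, at 71.8 and 223 CPM. The groups of cells above showed 25 Vsir-/- and 2 WT Clec9a cells. Within a cluster, more cells of a type and more RNA per cell cannot be told apart by such sums. The B cell gene Cd79a had 82 UMIs in the WT and 0 in the Vsir-/- cluster. With cells holding Cd79a, Cd79b, or Ms4a1 left out, 9 WT and 72 Vsir-/- cells remained and the log2 ratio was -1.02 for Siglech and 1.61 for Clec9a. The cells left out held 29 of 53 WT and 134 of 243 Vsir-/- Siglech UMIs. They included Siglech-high cells, in some of which Cd79b was seen as given above, so this limit did not remove B cells alone. Tubule genes summed to 15.1 CPM in the WT and 1152 CPM in the Vsir-/- cluster, with Umod, Spp1, and Gpx3 at 0, 2, and 0 and at 194, 393, and 415 UMIs. The part of these transcripts in the ratios was not tested.

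**Figure D4:**
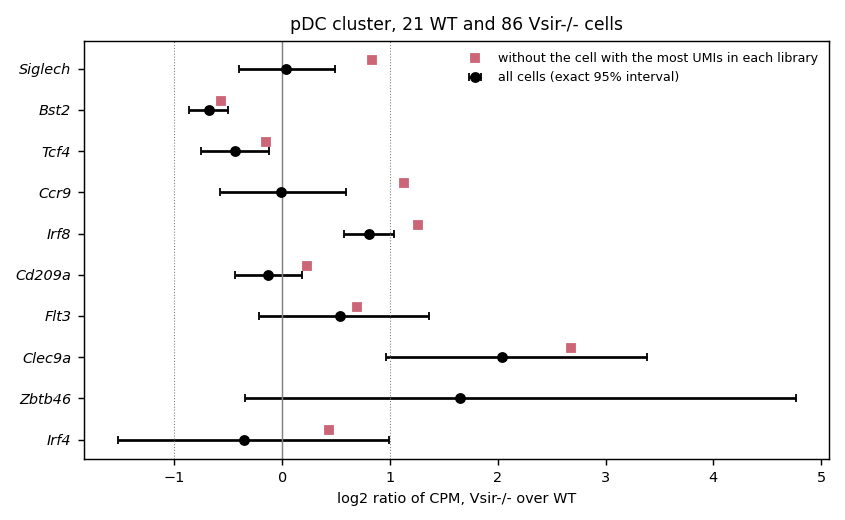
Log2 ratio of CPM, Vsir-/- over WT, for each member in the pDC cluster with exact 95% intervals (black) and without the cell with the most UMIs in each library (red squares, none for Zbtb46 since its 2 WT UMIs lay in 1 cell). Dotted lines mark 2-fold. Clec9a lay past 2-fold under both. Siglech, Ccr9, and Irf8 shifted upward without single cells, but 1 cell is a larger part of 21 WT cells than of 86 Vsir-/- cells.

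In the macrophage clusters the members differed as follows. Background shares past 2-fold were 13.6% higher and 8.78% lower in R1 and 8.11% higher and 7.61% lower in M2-like R2. In R1, Siglech was lower in the Vsir-/- library, with 2 against 23 UMIs, of which 21 came from the 1 cell described. Clec9a had 56 UMIs in Vsir-/- R1 cells and 36 in WT ones, a log2 ratio of -0.57 (-1.20 to 0.08). In M2-like R2, Cd209a had a log2 ratio of 1.02 (0.42 to 1.61) from 44 and 57 UMIs in 8 and 9 cells, and Irf4 one of -1.26 (-2.39 to -0.29). In B cells, where 16.3% of all genes were higher and 15.9% lower by over 2-fold, Bst2 (log2 ratio 2.10) and Flt3 (3.83) were higher and Irf4 lower (-1.06), in a Vsir-/- cluster in which 43 of 88 cells had none of the 3 B cell genes above. In Other R2, 0 of the 3 members that passed the minimum were past 2-fold, against 6.71% of genes higher and 9.52% lower. Those below the minimum included Siglech, with 9 UMIs in Vsir-/- and 0 in WT, and Irf4, with 1 and 16. In neutrophils (9.99% higher, 10.6% lower) Tcf4 was higher, with 22 against 32 UMIs in fewer cells. Of these 22 UMIs, 7 came from the 1 Vsir-/- neutrophil with 6 Siglech UMIs. In NK cells (9.86% higher, 7.01% lower) Cd209a was lower, with 0 against 28 UMIs that came from 1 cell.

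The genes most like the leading members were named over 29 sums of a cluster and library, with Pearson's r of log2(CPM + 1) among 12711 genes. The sums share libraries and depth, so r is a description. Cox6a2 (r = 0.83), Clec9a (0.80), and Lefty1 (0.77) were most like Siglech. Clec10a (0.91), Lefty1 (0.84), and Flt3 (0.83) were most like Cd209a. Xcr1 (0.90), Dnase1l3 (0.87), and Arhgap22 (0.86) were most like Clec9a. The pDC cluster held 69.5% of Cox6a2 UMIs and 76.3% of Xcr1 UMIs. Siglech and Clec9a were alike across clusters although few cells held many UMIs of both.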

How the data were processed

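Single-cell RNA libraries of WT and Vsir-/- kidneys with NTN were analysed, 1 per genotype. The submitters' processing notes name Cell Ranger (version 3.1.0), R (version 4.0.3), Seurat (version 3.2.3), and mm9. The authors deposited UMI counts as whole numbers without normalization, for genes seen in at least 5 cells, and a table of cells with library, cluster, UMAP position, and mitochondrial percent. Deposited percent values served for 1 alternative limit. Doublet removal is not described, and no doublet caller was run, so cells with genes of several types were kept.

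Within each cluster of each library, a gene's UMI sum was scaled by the total of the same cells (CPM). Orders of clusters by CPM took in only those with at least 20 cells in the library. Poisson, Clopper-Pearson, and conditional ratio intervals were computed at the 95% level (Python 3.11.15, SciPy 1.17.1). A gene was called past a log2 ratio of 1 in size with at least 20 UMIs. List values added 0.5 UMIs to each count, and a count of 0 was read as allowing 3. Cells were thinned to 1000 UMIs with a fixed seed. The scripts' calls and intervals were tested on simulated Poisson counts, in which 95% of changed and 6.17% of unchanged genes passed 2-fold. The simulation had no variation between cells, so it does not cover values that rest on single cells.

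The members, gene lists, and rules were chosen with earlier results of these data known. Named were all members, the 3 most abundant genes of each list in the pDC cluster, and the 3 genes most like Siglech, Cd209a, and Clec9a among genes with at least 100 UMIs, over sums of at least 20 cells. Xcr1, Batf3, Spib, Cd79b, Ms4a1, C1qa, Ptprc, and Ncr1 were named after their values were seen, as were the groups of cells. S100a9 and Retnlg are named only as part of a limit on cells. Promoters came from RefSeq, and the files hold no coordinates. Counts and sums over the B cell list are not reported here.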

Additional observations from a re-analysis of the deposited data

How the results depend on the processing

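The share of Siglech UMIs held by the WT pDC cluster, 69.7%, rested on few cells. It was 53.1% with mitochondrial shares limited to 5% and likewise 53.1% without the cell with the most Siglech. For the WT cluster these are the same removal, since the mitochondrial limit left 20 of its 21 cells, without that cell. The share was 100% after thinning and 11.5% with 14 WT cells holding T cell or neutrophil transcripts left out. It was 51.1% with 12 WT cells holding B cell transcripts left out (chosen after seeing the data). Both sets of cells, here and below, were left out of the pDC cluster only. The first included every WT Siglech-high cell, and the second included Siglech-high cells of both libraries. The Vsir-/- share was 95.9% under the mitochondrial limit and 84.5% without B cell transcripts. For Cd209a the WT share fell to 18.5% without T cell or neutrophil transcripts, 39.8% without the top cell, and 38.0% without B cell transcripts, and the Vsir-/- share was 82.2% after thinning. The WT Clec9a share was 4.65% without T cell or neutrophil transcripts. The Siglech log2 ratio between genotypes was 1.02 under the mitochondrial limit, 2.59 without T cell or neutrophil transcripts, 0.83 without the top cell, and -1.02 without B cell transcripts. That of Cd209a was 0.37 after thinning, 0.45, 0.23, and -0.52 in the same 3 alternatives. Members past 2-fold numbered 1 with at least 100 UMIs, 5 under the mitochondrial limit, and 4 without T cell or neutrophil or without B cell transcripts, and the share over all genes was not computed for these. After thinning, plasmacytoid-gate cells in Vsir-/- numbered 12, Cd209a cells 4 WT and 19 Vsir-/-, and type 1-gate cells 1 and 10. Requiring 2 Clec9a UMIs left 2 WT type 1-gate cells. Of 323 recomputed values, 175 moved by less than their counting interval or 1.5 times, and 0 of the ratios reported past 2-fold changed sign. Only Clec9a and Zbtb46 were reported past 2-fold, and alternatives with 0 UMIs in a library gave no ratio. The count of sign changes therefore says little about the other values. The ratio of Siglech, reported within 2-fold, passed 2-fold in both directions, as given above. With 21 WT cells, depth limits every WT value of the pDC cluster. No paired analysis was possible because each genotype has 1 library.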

Other observations

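Cells of the pDC cluster also differed in genes of proliferation. The 6 cell cycle genes summed to 653 CPM in Cd209a cells and 621 CPM in Clec9a cells, against 30.7 CPM in Siglech-high cells, with UMIs in 13 of 37, 16 of 27, and 4 of 17 cells. Most of these UMIs were from Vsir-/- cells, at 848 CPM in Cd209a and 649 CPM in Clec9a cells, against 108 CPM (14 UMIs in 2 of 8 cells) and 1 UMI in WT. The remaining cells stood at 555 CPM over both libraries. In WT alone they stood highest, at 881 CPM (60 UMIs in 3 of 7 cells). Genes that rise on tissue dissociation summed to 8773 CPM in Clec9a cells, 7501 CPM in Cd209a cells, and 3019 CPM in Siglech-high cells. The remaining cells stood higher, at 9890.5 CPM over both libraries and at 8931 CPM in WT alone. WT Cd209a cells stood at 6774 CPM, WT Clec9a cells at 3513, and WT Siglech-high cells at 2441 CPM. Depth differed between these groups too, and its part in the values was not tested.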
